A study of Mus musculus with 4 samples.

Results

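The genes described here are 8 markers of cellular senescence and brakes of the cell cycle: Cdkn2a, Cdkn2b, Cdkn2c and Cdkn1b, which encode inhibitors of cyclin-dependent kinases (CDKs), and Lmnb1, Glb1, Hmga1 and Hmga2. They were chosen by symbol, and all 8 had 1 row each among the 38921 gene intervals of the deposited tables. RNA came from cultured pancreatic fibroblasts of mixed-strain mice, 2 libraries from KPC animals and 2 from wild type animals, all grown in serum-containing medium and called biological replicates in the labels. KPC commonly names a pancreatic cancer mouse in which Cre, driven by the Pdx1 promoter of the pancreatic epithelial lineage, recombines engineered alleles that include mutant Trp53; the labels give only the name, no ages and no statement on pooled animals or on which cells carry the recombined alleles. The comparison asks per gene how KPC fibroblasts differ from wild type fibroblasts.

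Senescence is a lasting exit from the cell cycle. INK4 proteins such as p16Ink4a and p15Ink4b bind CDK4 and CDK6 and keep cyclin D from activating them, so that the retinoblastoma protein stays able to hold back E2F factors; Cip/Kip proteins such as p27Kip1 act mainly on CDK2 complexes. Cultured fibroblasts that become senescent are known to accumulate Cdkn2a transcripts, to lose lamin B1 (Lmnb1) and to gain the lysosomal beta-galactosidase (Glb1) behind the usual histochemical stain. HMGA proteins are chromatin proteins that bind AT-rich DNA; Hmga2 is known in mouse stem cells to keep Cdkn2a low, and both HMGA proteins have been found in the condensed chromatin of senescent human fibroblasts.

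Cdkn2a has 2 RefSeq start sites, and the deposited interval covers both, so its count is the sum of the transcripts for p16Ink4a and p19Arf. The promoters, 250 bases before to 50 after each start, are shown because this one count cannot separate them, and the Cdkn2b promoter is shown as the start site of the neighbouring inhibitor. They come from RefSeq (GRCm38.p6, the mm10 build that the submitters' processing notes name) on the minus strand. The upstream Cdkn2a window is chr4:89294570-89294869, the downstream one is chr4:89282143-89282442, and the Cdkn2b window is chr4:89310983-89311282. Capitals mark the GC box GGGCGG and the E2F words TTTGGCGC, TTTCCCGC, TTTCGCGC and TTTGCCGC, searched on both strands.
Cdkn2a upstream promoter: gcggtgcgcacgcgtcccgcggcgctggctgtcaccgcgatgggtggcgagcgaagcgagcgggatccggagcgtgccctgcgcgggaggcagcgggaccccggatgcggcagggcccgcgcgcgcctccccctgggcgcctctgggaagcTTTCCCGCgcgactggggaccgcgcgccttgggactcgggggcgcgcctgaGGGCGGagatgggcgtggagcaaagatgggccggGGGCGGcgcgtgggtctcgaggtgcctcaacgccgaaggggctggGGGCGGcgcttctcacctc
Cdkn2a downstream promoter: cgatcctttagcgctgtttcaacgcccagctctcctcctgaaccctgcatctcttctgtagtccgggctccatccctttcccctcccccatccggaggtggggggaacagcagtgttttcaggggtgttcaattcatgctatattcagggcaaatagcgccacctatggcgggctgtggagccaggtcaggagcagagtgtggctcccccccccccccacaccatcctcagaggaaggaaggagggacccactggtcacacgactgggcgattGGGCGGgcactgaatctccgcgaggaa
Cdkn2b promoter: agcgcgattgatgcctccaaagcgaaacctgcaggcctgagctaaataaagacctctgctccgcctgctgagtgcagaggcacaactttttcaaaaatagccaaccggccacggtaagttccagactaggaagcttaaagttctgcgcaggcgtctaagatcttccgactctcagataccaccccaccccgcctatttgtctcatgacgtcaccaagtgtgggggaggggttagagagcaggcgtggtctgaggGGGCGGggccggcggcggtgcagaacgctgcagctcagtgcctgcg
The upstream Cdkn2a window held 3 GC boxes and 1 E2F word, the downstream one 1 GC box, and the Cdkn2b window 1 GC box. Of all 32851 RefSeq promoter windows, 35.7% held a GC box and 2.26% an E2F word. CpG dinucleotides numbered 45, 12 and 18 in the 3 windows, against a median of 7 over all windows. These letter matches describe the windows and are not measured binding sites.

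Levels below are CPM, the count divided by the library total after TMM scaling and put on a common scale, and differences are edgeR log2 fold changes of KPC over wild type with their standard errors (SE). Total counts were 57926327 and 68312367 in KPC 1 and KPC 2 and 53232634 and 22302141 in wild type 1 and wild type 2. All 8 genes were among the 23046 rows that passed the low-count filter. The fibroblast marker Col1a1 stood at 4802 and 5245 CPM in KPC and at 4088 and 4716 CPM in wild type, and all 10 fibroblast markers had counts in every library, although Lum was at 0.171 CPM in wild type 1. Both KPC values exceeded both wild type values for 2 markers (Col1a1 and Thy1), 6 markers overlapped, and 2 were lower in both KPC libraries. These counts of 2 among 10 were near the shares over all tested rows, 20.6% higher and 20.5% lower in both KPC libraries. The lower ones were Vim, at 1731 and 1698 CPM in KPC and 3695 and 2157 CPM in wild type, and Pdgfrb, at 69.1 and 118 CPM in KPC and 194 and 132 CPM in wild type. Markers of other cell types were also present and unequal. The 9 macrophage markers with a row, out of 10 listed, summed to 843 and 1745 CPM in KPC, against 68.9 and 226 CPM in wild type; the 9 epithelial markers to 1148 and 329 CPM in KPC against 30.4 and 390 CPM in wild type; the 7 endothelial markers to 19.4 and 27.1 CPM in KPC against 626 and 38.3 CPM in wild type; and the 6 islet markers to 0.510 and 0.988 CPM in KPC against 1.71 and 742 CPM in wild type. The 6 Schwann markers summed to 1.17 and 0.840 CPM in KPC against 26.7 and 3.67 CPM in wild type. None of these lists had every defining marker at 0 in a library: Ins1 and Gcg had 0 counts in KPC 1, Foxd3 had 0 there, and Sst had 0 in every library but wild type 2. Their part in the results below was not tested, and in bulk RNA fewer cells of a type and less RNA per cell cannot be told apart.

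None of the 8 genes passed edgeR's quasi-likelihood test at an adjusted p of 0.05, and the smallest adjusted p among them was 0.597. Across all tested rows 0% were called higher and 0% lower, with a smallest adjusted p of 0.211. At an unadjusted p under 0.05, the main edgeR fit called 0 of the 8 (background 4.73% of rows higher and 3.94% lower). DESeq2 called 0 of the 8 after adjustment (background 1.56% higher and 1.29% lower). Before adjustment DESeq2 called 2 of the 8, Cdkn2a and Hmga2, against a background of 1228 rows higher and 946 lower among 31118. With limma voom 0 of the 8 were called after adjustment and 0 before it. By position of the libraries, the groups did not overlap for 5 of the 8 genes (background 41.1%). In 4 of these both KPC values exceeded both wild type values, as they did for 20.6% of the tested rows, in 1 both KPC values were the lower ones (background 20.5%), and 3 genes overlapped. The log2 fold change was positive for 6 genes (background 48.8%) and negative for 2 (background 51.2%). The 4 were Cdkn2a, Cdkn2c, Cdkn1b and Lmnb1, and the 1 was Hmga2. The median log2 fold change of the 8 was 0.40, beside -0.01 over all tested rows. With 2 libraries a group an exact permutation test cannot go below 0.333, and none is given.

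**Figure D1:**
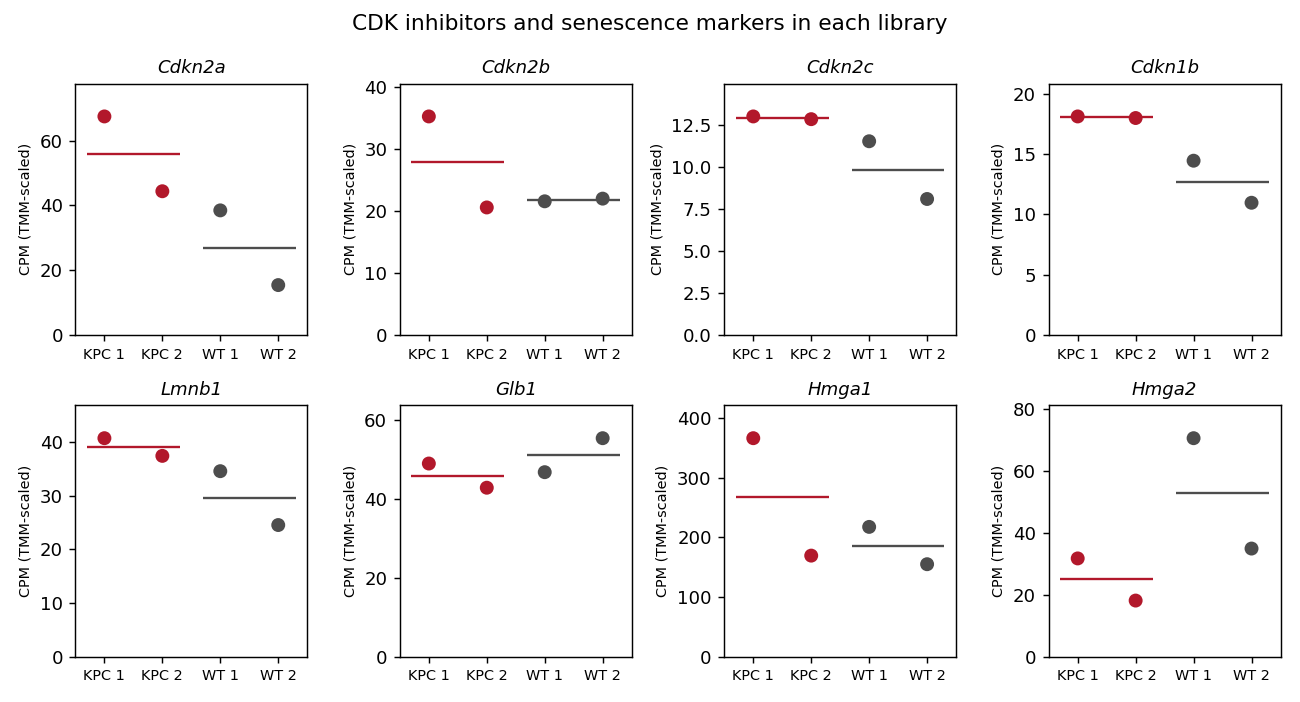
TMM-scaled CPM of each of the 8 genes (y axis, from 0) in the 2 KPC and 2 wild type (WT) libraries (x axis); points are libraries and lines are group means. Cdkn2a lies at 67.4 and 44.4 CPM in KPC against 38.5 and 15.4 CPM in wild type, and Hmga2 at 31.8 and 18.2 CPM in KPC against 70.6 and 35.0 CPM in wild type.

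Among the inhibitors, Cdkn2a had the largest difference. The gene (chromosome 4, 89274471 to 89294653) had 3967 and 3009 counts in KPC 1 and KPC 2, against 2022 and 345 counts in wild type 1 and wild type 2. In scaled values these were 67.4 and 44.4 CPM in KPC and 38.5 and 15.4 CPM in wild type, with means of 55.9 ± 16.3 CPM in KPC and 26.9 ± 16.3 CPM in wild type (SD, n = 2 each). Wild type 2 was the lowest library by a wide margin, and KPC 2 stood only slightly above wild type 1. This gave a log2 fold change of 1.05 ± 0.49 (SE), about 2.07-fold, with a 95% interval of -0.24 to 2.33 (edgeR quasi-likelihood test, adjusted p = 0.623). It was larger than that of 94.5% of the tested rows. Without wild type 2 the log2 fold change was 0.54, and without wild type 1 it was 1.86, so its size rested on which wild type library was used. The islet markers, at 742 CPM in wild type 2, were highest in the library where Cdkn2a was lowest. The epithelial markers, at 1148 CPM in KPC 1, were highest in the library where Cdkn2a was highest. In the other libraries the epithelial sums did not follow Cdkn2a, at 329 CPM in KPC 2, 30.4 CPM in wild type 1 and 390 CPM in wild type 2. The part of either marker list was not tested. Reads covered 2232 and 2124 bases of the interval in KPC and 2520 and 1225 bases in wild type, more than the 1172 bases that GENCODE M21 annotates as Cdkn2a exons, so part of the coverage lay outside annotated exons.

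Cdkn2b, whose product p15Ink4b is the INK4 inhibitor that TGF-beta is known to induce, lies next to Cdkn2a (chromosome 4, 89306289 to 89311032) and had another order of libraries. It stood at 35.3 and 20.6 CPM in KPC and at 21.6 and 22.0 CPM in wild type. Only KPC 1 was high; KPC 2 was below both wild type libraries. The log2 fold change was 0.36 ± 0.30 (SE; 95% interval -0.42 to 1.14; edgeR adjusted p = 0.775), and it was -0.075 without KPC 1.

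The balance of the 2 neighbours was read within each library, where no scaling enters. Cdkn2a took 65.7% and 68.3% of the summed Cdkn2a and Cdkn2b counts in KPC 1 and KPC 2, with exact 95% binomial intervals of 64.5% to 66.9% and 66.9% to 69.7%. It took 64.1% and 41.2% in wild type 1 and wild type 2, with intervals of 62.4% to 65.7% and 37.9% to 44.6%; these intervals cover counting error only. Wild type 2 stood farthest apart, and the intervals of wild type 1 and KPC 1 overlapped. The KPC 2 interval overlapped no other, since it began at 66.91%, just above the end of the KPC 1 interval at 66.87%. The nearest rows on either side of the pair were at low levels in all 4 libraries. Gm12606, next to Cdkn2a, had 1.04 and 1.25 CPM in KPC and 1.20 and 0.984 CPM in wild type, and Gm12609, next to Cdkn2b, had 0.306 and 0.236 CPM in KPC and 0.285 and 0.268 CPM in wild type. Beyond them, Gm26490 had 1 count in wild type 1 and 0 in the other 3 libraries, Gm12605 0.153 and 0.192 CPM in KPC and 0.171 and 0.224 CPM in wild type, and Gm12610 and the Gm12608 row inside it between 0.663 and 1.16 CPM in every library.

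**Figure D2:**
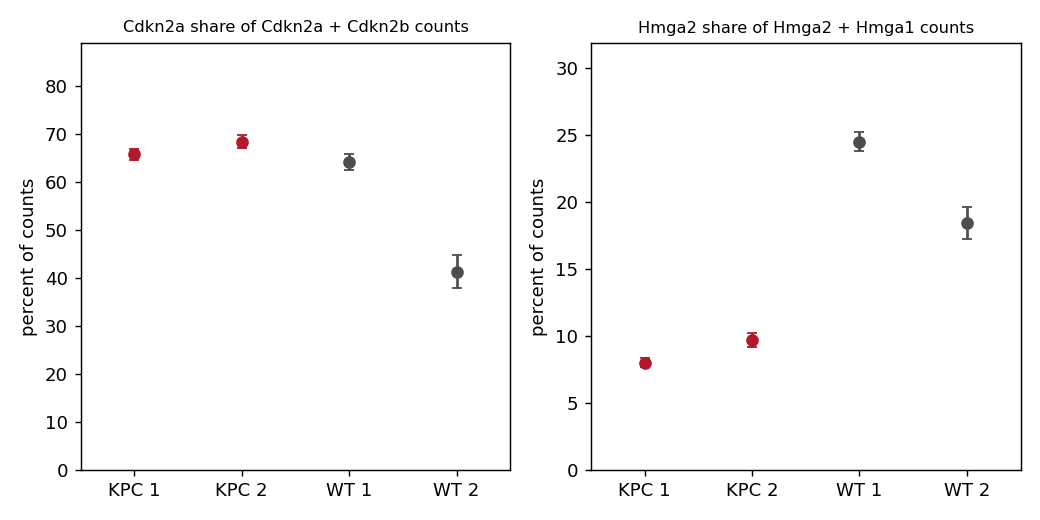
Percent of counts (y axes, from 0) taken by Cdkn2a out of Cdkn2a plus Cdkn2b (left) and by Hmga2 out of Hmga2 plus Hmga1 (right) in each library (x axis); bars are exact 95% binomial intervals for counting error. Wild type 2 lies apart at 41.2% on the left, and on the right the KPC libraries lie at 7.99% and 9.69%, below both wild type libraries.

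Cdkn2c encodes p18Ink4c, an INK4 protein active during differentiation, and lies farther along chromosome 4 (109660876 to 109667189). It stood at 13.0 and 12.8 CPM in KPC and at 11.5 and 8.09 CPM in wild type. The KPC libraries agreed closely and both wild type libraries were lower. The log2 fold change was 0.39 ± 0.25 (SE; 95% interval -0.25 to 1.04; edgeR adjusted p = 0.694), and without wild type 2 it was 0.17.

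Cdkn1b encodes p27Kip1, the Cip/Kip inhibitor that builds up in quiescent cells and is degraded through the Skp2 ubiquitin ligase. The gene (chromosome 6, 134920401 to 134925513) stood at 18.1 and 17.97 CPM in KPC and at 14.4 and 11.0 CPM in wild type. Here too the KPC libraries nearly coincided and lay above both wild type libraries. The log2 fold change was 0.50 ± 0.22 (SE; 95% interval -0.06 to 1.07), with an edgeR adjusted p of 0.601. It ran from 0.32 to 0.72 when each library was left out in turn.

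Lmnb1 (chromosome 18, 56707813 to 56753424), the lamin whose loss marks senescent fibroblasts, stood at 40.7 and 37.4 CPM in KPC and at 34.6 and 24.6 CPM in wild type. It stood higher in the same libraries in which Cdkn2a was higher, with a log2 fold change of 0.40 ± 0.23 (SE; 95% interval -0.20 to 1.00; edgeR adjusted p = 0.666). Without wild type 2 its log2 fold change was 0.18. Glb1 (chromosome 9, 114401076 to 114474376) stood at 49.0 and 42.9 CPM in KPC and at 46.8 and 55.4 CPM in wild type. Its groups overlapped and its log2 fold change was -0.15 ± 0.19 (SE; edgeR adjusted p = 0.858). The 95% interval ran from -0.64 to 0.33, the narrowest among the 8 genes. The row of Tmppe lies inside the Glb1 interval and held between 19.1% and 20.5% of as many counts as Glb1 in the 4 libraries; with those counts subtracted the Glb1 log2 fold change was -0.17.

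The HMGA genes differed from each other. Hmga2 (chromosome 10, 120361275 to 120476469) was the member with the largest difference below 0. It had 1870 and 1233 counts in KPC, against 3712 and 782 counts in wild type, or 31.8 and 18.2 CPM in KPC and 70.6 and 35.0 CPM in wild type. The means were 25.0 ± 9.62 CPM in KPC and 52.8 ± 25.2 CPM in wild type (SD, n = 2 each). Wild type 1 was by far the highest library, and wild type 2 lay just above KPC 1. Hmga2 thus had a log2 fold change of -1.08 ± 0.45 (SE; 95% interval -2.26 to 0.09), 0.473-fold, with an edgeR adjusted p of 0.597, and 4.50% of the tested rows had a value as low. It was -0.48 without wild type 1 and between -1.53 and -0.73 without any other library. The row 1700006J14Rik inside Hmga2 held counts equal to between 4.86% and 6.08% of those of Hmga2. Reads covered 7837 and 6208 bases of the Hmga2 interval in KPC and 16201 and 5157 bases in wild type. GENCODE M21 annotates 6772 exon bases, so part of the coverage lay outside exons in wild type 1 and KPC 1. Endothelial markers, summed at 626 CPM in wild type 1, were highest in the library where Hmga2 was highest; their part was not tested.

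Hmga2 is the textbook target of the let-7 microRNAs, which pair with sites in its 3' untranslated region (UTR). The mature RNAs (RefSeq, GRCm38.p6) are shown with the seed, bases 2 to 8, in capitals, and the sites in the longest GENCODE M21 Hmga2 UTR with the complementary word CTACCTC in capitals.
mmu-let-7a-5p: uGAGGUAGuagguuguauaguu
mmu-let-7b-5p: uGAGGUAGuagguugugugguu
mmu-let-7i-5p: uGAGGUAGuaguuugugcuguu
Hmga2 site 1: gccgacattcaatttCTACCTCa
Hmga2 site 2: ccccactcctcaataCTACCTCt
Hmga2 site 3: ctgatttgcaaggaaCTACCTCc
Hmga2 site 4: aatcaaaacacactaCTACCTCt
The 3 let-7 RNAs share this seed. The word occurred 4 times in the 3017-base Hmga2 UTR and once in the longest Hmga1 UTR, and it was absent from those of the other 6 genes. Of 21877 protein-coding genes, 8.67% held it in their longest UTR, and 12, Hmga2 included, held it 4 times or more. Mature microRNAs are not captured by a poly-A library, so let-7 levels were not measured here.

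Hmga1 (chromosome 17, 27556620 to 27563674) was the most abundant member and the least certain one. It stood at 366 and 169 CPM in KPC and at 217 and 155 CPM in wild type. KPC 1 alone was high, and KPC 2 lay between the wild type libraries. The epithelial markers summed to 1148 and 329 CPM in KPC 1 and KPC 2 and to 30.4 and 390 CPM in wild type 1 and wild type 2. They were thus highest where Hmga1 was highest, but second highest in wild type 2, where Hmga1 was lowest. Their part was not tested. The log2 fold change was 0.52 ± 0.42 (SE; 95% interval -0.57 to 1.62; edgeR adjusted p = 0.766), and it was -0.13 without KPC 1. Reads of this gene can match other places in the genome, so the Hmga1 values are uncertain. The row AI413582 also overlaps the end of the Hmga1 interval.

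Within each library Hmga2 took 7.99% and 9.69% of the summed Hmga2 and Hmga1 counts in KPC 1 and KPC 2, with exact 95% binomial intervals of 7.65% to 8.35% and 9.18% to 10.2%. It took 24.5% and 18.4% in wild type 1 and wild type 2, with intervals of 23.8% to 25.2% and 17.3% to 19.6%. The groups did not overlap in this share, which uses no scaling but does rest on the uncertain Hmga1 count. This share was compared after the values were seen and has no test across all rows.

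**Figure D3:**
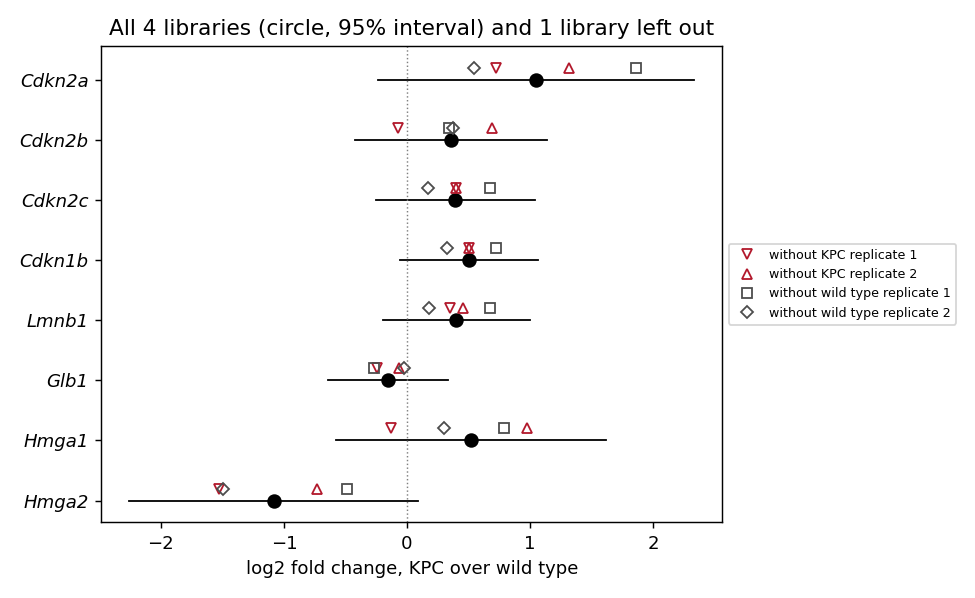
Log2 fold change of KPC over wild type (x axis) for each of the 8 genes (y axis), as a circle with its 95% interval from all 4 libraries and as open symbols with 1 library left out. Each interval includes 0, and the symbols of Cdkn2b and Hmga1 without KPC replicate 1 lie at -0.075 and -0.13, on the other side of 0 from their circles.

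To compare levels between genes, CPM was divided by the kilobases of annotated GENCODE M21 exon, although counts run over the whole interval. On this scale, averaged over the 4 libraries, Hmga1 was at 107 CPM per kilobase, with the same uncertainty. Cdkn2a followed at 35.3, Cdkn2b at 17.9, Glb1 at 16.1, Lmnb1 at 11.6, Hmga2 at 5.74, Cdkn2c at 4.23 and Cdkn1b at 3.38 CPM per kilobase. As ranges over the libraries, Hmga1 did not overlap Cdkn2a in this order and Glb1 did not overlap Lmnb1, while all other neighbours overlapped. Compared within each library, Lmnb1 still stood above Hmga2 and Cdkn2c above Cdkn1b every time. The gap between Glb1 and Lmnb1 was narrow, at 14.2 for Glb1 in KPC 2 and 13.8 for Lmnb1 in KPC 1. Tmppe counts equalled 20.0% of the Glb1 counts in KPC 2. Reads covered between 8305 and 13439 bases of the Glb1 interval, against 3008 exon bases, so its place above Lmnb1 is uncertain. The order of Hmga2 and Cdkn2c turned between groups. Hmga2 stood at 4.69 and 2.68 CPM per kilobase in KPC and at 10.4 and 5.16 in wild type. Cdkn2c stood at 4.84 and 4.78 CPM per kilobase in KPC and at 4.29 and 3.01 in wild type. Hmga2 was thus below Cdkn2c in both KPC libraries and above it in both wild type ones. Reads covered 16201 bases of the Hmga2 interval in wild type 1 and 7837 in KPC 1, against 6772 exon bases. For Cdkn2c they covered between 2184 and 3205 bases, against 2686 exon bases. Reads outside exons thus enter this order, which is uncertain.

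The spread within groups also differed between members. The KPC libraries differed by 0.010 (Cdkn1b) and 0.017 (Cdkn2c) on the log2 scale at the low end and by 1.11 (Hmga1) at the high end, with a median of 0.20 over all tested rows. The wild type libraries differed by 0.028 for Cdkn2b and by 1.29 for Cdkn2a, with a median of 0.29 over all rows. Thus the members with the largest differences between groups, Cdkn2a and Hmga2, were also those with the largest differences between the wild type libraries, 1.29 and 1.00.

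Other inhibitors of CDKs showed no common direction. Of Cdkn1a, Cdkn1c, Cdkn2d and Cdkn3 (a phosphatase gene of neither inhibitor family), 0 passed the edgeR test. Cdkn1a was the 1 with an unadjusted p under 0.05 (background 4.73% higher and 3.94% lower). Cdkn1a, which encodes the p53-induced inhibitor p21, stood at 149 and 139 CPM in KPC and at 191 and 267 CPM in wild type, a log2 fold change of -0.67 ± 0.23 (SE; edgeR adjusted p = 0.541). It was lower in both KPC libraries, in which Cdkn2a was higher. Cdkn1c, which encodes the Cip/Kip protein p57, stood at 3.55 and 10.3 CPM in KPC and at 1.69 and 7.16 CPM in wild type, with overlapping groups and a log2 fold change of 0.67 ± 0.84 (SE; edgeR adjusted p = 0.866). Cdkn2d, which encodes the fourth INK4 protein p19Ink4d, stood at 10.9 and 14.8 CPM in KPC and at 13.4 and 12.0 CPM in wild type.

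The kinases that the INK4 proteins bind, and their targets, were read next. The groups did not overlap for 4 of 12 cyclin and CDK genes and for 5 of 13 pocket protein and E2F genes, near the background of 41.1%. Of the 12 cyclin and CDK genes, 0 passed the edgeR test, and the median log2 fold change was -0.00. At an unadjusted p under 0.05, 1 was higher (Ccnb1, background 4.73%) and 1 lower (Ccnd2, background 3.94%). Cdk4 stood at 123 and 116 CPM in KPC and at 120 and 126 CPM in wild type, and Cdk6 at 6.48 and 5.51 CPM in KPC and at 3.88 and 5.10 CPM in wild type; Cdk6 did not overlap. Ccnd2, a D-type cyclin and partner of these kinases, had 76.0 and 81.0 CPM in KPC and 277 and 126 CPM in wild type (log2 fold change -1.36, edgeR adjusted p = 0.518), and Ccnd1 had 163 and 83.9 CPM in KPC and 338 and 18.3 CPM in wild type. Ccnd3 varied much less, at 41.1 and 41.0 CPM in KPC and 50.7 and 54.6 CPM in wild type. Among the 13 pocket protein and E2F genes, 0 passed, and 1 was higher at an unadjusted edgeR p under 0.05 (background 4.73%). That gene was E2f8, an E2F repressor, at 4.11 and 2.67 CPM in KPC and 1.85 and 1.48 CPM in wild type. The retinoblastoma gene Rb1 (13.8 and 17.5 CPM in KPC, 18.2 and 12.5 CPM in wild type) and E2f1 (34.4 and 34.5 CPM in KPC, 36.8 and 33.9 CPM in wild type) overlapped.

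Genes that act on the transcription of Cdkn2a were also read. Of 15 genes around Polycomb, which silences the locus in young cells (the list includes Kdm6b, a demethylase that opposes it), 0 passed and 0 had an unadjusted edgeR p under 0.05, with a median log2 fold change of -0.04. Jarid2, a Polycomb cofactor gene, had the smallest p and the largest difference of the list, at 264 and 360 CPM in KPC and 2677 and 333 CPM in wild type (log2 fold change -2.27, edgeR adjusted p = 0.601). Wild type 1 alone was high and the groups overlapped. Bmi1 stood at 13.7 and 12.3 CPM in KPC and at 17.9 and 9.75 CPM in wild type, and Ezh2 at 22.3 and 17.9 CPM in KPC and at 18.9 and 16.1 CPM in wild type. Of 8 transcription factors that bind or regulate the locus, 0 passed. At an unadjusted edgeR p under 0.05, Ets2 was higher (background 4.73%) and Id1 lower (background 3.94%). Ets2, an activator of Cdkn2a, had 43.9 and 33.4 CPM in KPC and 16.5 and 26.9 CPM in wild type (log2 fold change 0.84 ± 0.31, SE). Id1, which opposes Ets factors there, had 32.3 and 26.9 CPM in KPC and 53.1 and 41.2 CPM in wild type (-0.67 ± 0.22, SE). Their edgeR adjusted p-values were 0.566 for Ets2 and 0.537 for Id1. Myc had 27.9 and 25.0 CPM in KPC and 19.8 and 19.9 CPM in wild type.

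Of 7 genes for p27 turnover and transcription, 0 passed and 0 had an unadjusted edgeR p under 0.05 (median log2 fold change -0.06). Skp2, which targets p27 for degradation, stood at 3.13 and 5.69 CPM in KPC and at 3.71 and 3.80 CPM in wild type, and its cofactor Cks1b at 61.6 and 49.7 CPM in KPC and at 33.7 and 44.4 CPM in wild type. Of 10 nuclear lamina and envelope genes, 0 passed and 0 had an unadjusted edgeR p under 0.05 (median 0.06). Lmna stood at 459 and 368 CPM in KPC and at 489 and 375 CPM in wild type. Lmnb2 stood at 9.79 and 13.4 CPM in KPC and at 11.5 and 9.88 CPM in wild type, so neither lamin gene separated the groups as Lmnb1 did. Of the 10, 1 was higher in both KPC libraries (background 20.6%) and 1 lower in both (background 20.5%). Banf1 was higher, at 68.8 and 68.9 CPM in KPC and 60.8 and 57.8 CPM in wild type. Sun2 was lower, at 64.1 and 60.6 CPM in KPC and 84.5 and 65.8 CPM in wild type.

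Of 16 lysosomal glycosidase and membrane protein genes, 0 passed, 8 had a positive and 8 a negative log2 fold change, and the median was -0.03. The mannosidase gene Man2b1 alone had an unadjusted edgeR p under 0.05 (background 4.73% higher and 3.94% lower), with an adjusted p of 0.375. It stood at 35.7 and 40.1 CPM in KPC and at 19.4 and 22.5 CPM in wild type. In the let-7 and HMGA2 list of 6 genes, 0 passed and 3 were lower in both KPC libraries (Lin28b, Igf2bp1 and Igf2bp3; background 20.5%). Igf2bp1, an RNA-binding protein gene and let-7 target, had 1.19 and 1.39 CPM in KPC and 2.13 and 3.62 CPM in wild type (unadjusted p = 0.0296, edgeR adjusted p = 0.541). Igf2bp2, a gene that Hmga2 is known to activate, overlapped at 33.9 and 15.7 CPM in KPC and 25.0 and 21.2 CPM in wild type.

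The chromatin proteins of the HMGB and HMGN families, which share the high mobility group name with HMGA but not its DNA-binding motif, were the list with the largest median difference around these genes. Of 7 genes, 0 passed the edgeR test over all rows, 6 had a positive log2 fold change (background 48.8%), 5 were higher in both KPC libraries (background 20.6%) and 4 were higher at an unadjusted p under 0.05 (background 4.73%); the median was 0.60. Hmgb2, whose loss is reported in senescent cells, had 46.8 and 55.5 CPM in KPC and 29.5 and 23.9 CPM in wild type, a log2 fold change of 0.94 ± 0.20 (SE; edgeR adjusted p = 0.387). Hmgb3 had 17.6 and 17.5 CPM in KPC and 12.0 and 10.4 CPM in wild type. Hmgn1 had 289 and 226 CPM in KPC and 163 and 176 CPM in wild type.

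Of 30 genes of the senescence-associated secretory phenotype, the cytokines, proteases and growth factor binders that senescent cells release, 0 passed, and 4 were higher (background 4.73%) and 4 lower (background 3.94%) at an unadjusted edgeR p under 0.05. The median log2 fold change was 0.53, and values went both ways. Il6 stood at 42.0 and 67.4 CPM in KPC and at 8.14 and 61.0 CPM in wild type, so wild type 1 alone was low. The growth factor gene Areg had 29.8 and 3.82 CPM in KPC and 0.171 and 0.939 CPM in wild type. Csf1 had 410 and 406 CPM in KPC and 641 and 929 CPM in wild type, and Igfbp5 0.714 and 1.05 CPM in KPC and 4.43 and 2.19 CPM in wild type. The macrophage markers given above, 9 of 9 of them higher in both KPC libraries (background 20.6%), stand beside these values, and their part in them was not tested.

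Of 16 proliferation genes, which CDK inhibitors act to hold down, 0 passed the edgeR test, 15 had a positive log2 fold change (background 48.8%), and 4 were higher in both KPC libraries, near the background of 20.6%; the median was 0.25. Mki67, a marker of cycling cells, stood at 38.4 and 42.9 CPM in KPC and at 55.5 and 30.4 CPM in wild type. The replication helicase gene Mcm4 had 29.8 and 21.3 CPM in KPC and 19.9 and 13.6 CPM in wild type, and Mcm2 17.6 and 17.5 CPM in KPC and 15.5 and 13.0 CPM in wild type. Mcm7 was the 1 member with an unadjusted edgeR p under 0.05 (background 4.73% higher and 3.94% lower). Its log2 fold change was 0.62 ± 0.17 (SE), with an edgeR adjusted p of 0.479.

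**Figure D4:**
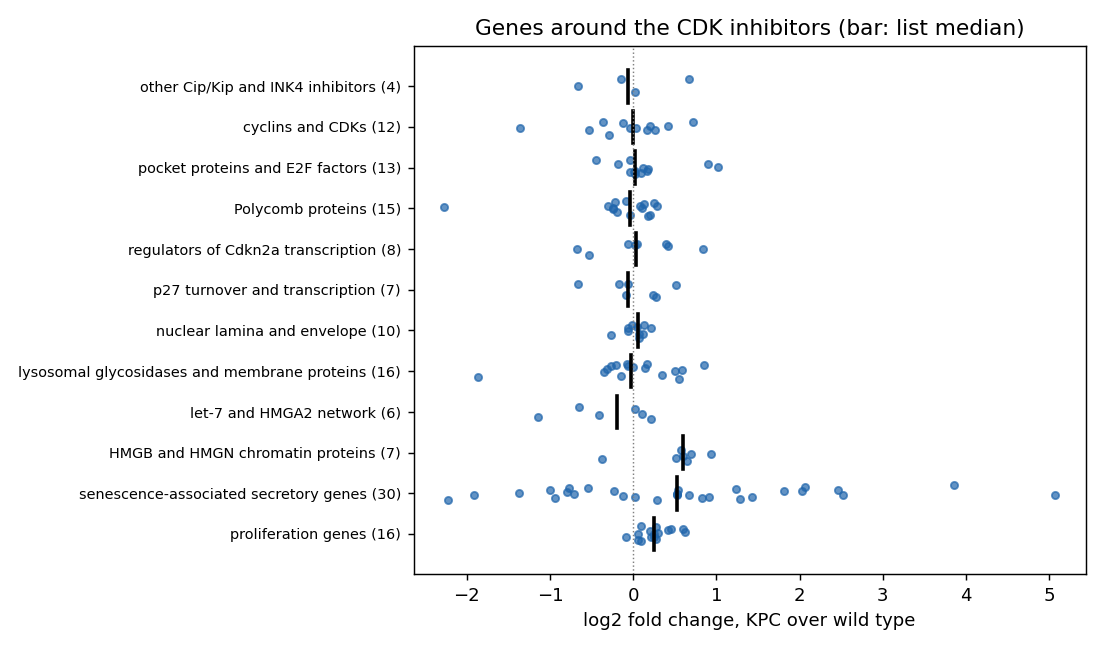
Log2 fold change of KPC over wild type (x axis) for each tested gene (point) of 12 lists around the CDK inhibitors (y axis, number tested in brackets); black bars are list medians. The HMGB and HMGN list has the highest median, 0.60, and the secretory list spreads most widely.

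The genes whose pattern over the 4 libraries lay nearest to the 3 most variable members were found by the root mean square difference of centred log2 CPM, among 13238 other rows with a mean of at least 5 CPM. For Cdkn2a they included Itga3 and Klf2, with differences of 0.13 and 0.14. Itga3, an integrin gene, stood at 96.6 and 52.7 CPM in KPC and at 56.8 and 19.4 CPM in wild type. For Hmga2 they were Cobll1, Gm15581 and Scrn1, with differences of 0.077, 0.094 and 0.11, and for Hmga1 Ep400, Wasf1 and Mtmr11, at 0.052, 0.052 and 0.058. These are descriptions over 4 libraries that share their depth and scaling.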

How the data were processed

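Each library has 1 deposited table of 38921 gene intervals giving reads, covered bases and the covered fraction of the interval. The authors' deposited count was taken as a raw count, since the values are whole numbers with different totals; the deposited fraction equals covered bases over interval length and served only as a check. Tools named, per the submitters' processing notes, are TopHat2 2.0.3, bedtools (without a version), SAMtools 0.1.18 and FastQC 0.10.1, with mm10 as build and no roles given. Coordinates are printed as deposited; 90.18% of the starts whose ends match GENCODE M21 equal its 1-based starts.

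The tests ran in R 4.3.3 with edgeR 4.0.16: filterByExpr (minimum count 10), TMM factors, and the two-sided quasi-likelihood test adjusted by Benjamini-Hochberg over 23046 rows at 0.05. SE is the unshrunk log2 fold change over the root of F, and 95% intervals use the t distribution with the fit's degrees of freedom (2 residual and 2.76 prior). The labels name no animals or cultures, so the spread behind each p-value is that of these libraries alone and may be technical. No library repeated another: chi-square divided by its degrees of freedom was 62.6 for the KPC pair and 115 for the wild type pair. Strand was not stated, so overlapping rows are uncertain. Scripts were tested on simulated data. Members, lists and naming rules (all members, and up to 3 genes of smallest p plus set genes from each list) were chosen with earlier results of these data known. Cdkn2d, Lmnb2, Kdm6b and the single cell type markers were named after their values were seen.

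Alternatives were other scalings and filters, DESeq2 1.42.0, limma 3.58.1 voom, a replicate block, each library left out and, added after seeing the data, inner rows subtracted and a change to the Hmga1 count that is not reported here. Figures were drawn with matplotlib 3.10.9.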

Additional observations from a re-analysis of the deposited data

How the results depend on the processing

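The 8 log2 fold changes were recomputed under 99 combinations of gene and alternative; 97 kept their direction and stayed short of the threshold, 0 passed it, and 2 changed sign. Both changes came without KPC replicate 1, where Cdkn2b was at -0.075 and Hmga1 at -0.13; in the library left out, each gene had its highest level. With 1 library left out, the values ran from 0.54 to 1.86 for Cdkn2a, -0.075 to 0.69 for Cdkn2b, 0.17 to 0.68 for Cdkn2c, 0.32 to 0.72 for Cdkn1b, 0.18 to 0.67 for Lmnb1, -0.27 to -0.025 for Glb1, -0.13 to 0.97 for Hmga1 and -1.53 to -0.48 for Hmga2. The lone library of its group is there assumed to vary like the others. Over all alternatives the adjusted p ran from 0.257 for Cdkn2a and 0.122 for Hmga2 up to 1.00.

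Over all rows, edgeR called 0 genes higher and 0 lower, DESeq2 called 353 higher and 293 lower, and with 1 library left out edgeR called 0 to 429 higher and 0 to 406 lower; the highest counts were without wild type replicate 2, and without wild type replicate 1 there were 0 higher and 5 lower. The cause was not tested. Wild type 2 had the fewest counts, 22302141. By correlation between libraries, it was nearest to KPC 2 (0.979), then to KPC 1 (0.969). Its lowest correlation was that to its group partner, wild type 1 (0.961). Wild type 1 was less like the KPC libraries, with correlations of 0.946 for KPC 1 and 0.947 for KPC 2. The wild type libraries were thus not a close pair on this measure, and its part in the counts of genes called was not tested. Other scalings moved the median of all rows by at most -0.067 (upper quartile). With the replicate block, edgeR called 0 higher and 0 lower, and Cdkn2a was at 1.16 and Hmga2 at -1.05 (adjusted p = 0.362 and 0.277). Same-numbered deviations correlated at 0.14 across rows, and the labels do not say that the numbers pair samples.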
